A study of Sus scrofa with 6 samples.

Results

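The miR-23, miR-27 and miR-24 microRNAs (miRNAs) come from a pair of short gene clusters, and their levels were compared in the left atrium (LA) of paced and sham pigs. All probes named ssc-miR-23a, ssc-miR-23b, ssc-miR-27a, ssc-miR-27b or ssc-miR-24 were taken, with any copy number and with or without an arm suffix, which gave 8 of the 322 pig miRNAs on the array. They are ssc-miR-23a, ssc-miR-23b, ssc-miR-27a, ssc-miR-27b-3p, ssc-miR-27b-5p, ssc-miR-24-3p, ssc-miR-24-1-5p and ssc-miR-24-2-5p. The animals were "Large white" pigs, 3 months old by the study's methods, although the sample labels speak of neonatal piglets. Paced pigs had 3 bursts of rapid stimulation of the right atrium at 800 bpm through a catheter, after the beta blocker esmolol, and brief self-terminating atrial fibrillation followed. Sham pigs were operated on without burst pacing, and whether they received esmolol is not stated. Hearts were taken 20 to 24 hours later. LA RNA from 3 sham and 3 paced animals was hybridized to 1 array per animal, so that p values here measure the spread between animals.

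A miRNA gene is transcribed into a hairpin that is cut into a 5p and a 3p strand, here called arms. One arm usually stays in the silencing complex and guides it, mainly through its seed, to matching sites in messenger RNAs, which are then repressed. The other arm is mostly degraded. miR-23, miR-27 and miR-24 are cotranscribed from a pair of clusters that arose by duplication, and in the heart and vessels they are known from work on hypertrophy, cardiomyocyte survival, fibrosis and the growth of new vessels. In the RefSeq gene table of the Sscrofa11.1 assembly, MIR23A, MIR27A and MIR24-1 neighbour each other and make the first cluster. MIR23B, MIR27B and MIR24-2 neighbour each other and make the second, which overlaps the protein-coding gene C10H9orf3. The 3p arm of miR-24 is listed as 1 mature sequence for both clusters, so its probe cannot tell them apart, whereas each of the 5p arms of miR-24 belongs to 1 cluster.

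The sequences given for the 8 probes show which of these miRNAs differ by only a few bases. They are written 5′ to 3′, with the seed (bases 2 to 8) in capitals and grouped by shared seed.
ssc-miR-23a: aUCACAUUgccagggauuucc
ssc-miR-23b: aUCACAUUgccagggauuacca
ssc-miR-27a: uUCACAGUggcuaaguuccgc
ssc-miR-27b-3p: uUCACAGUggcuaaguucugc
ssc-miR-24-1-5p: gUGCCUACugagcugaaacacagu
ssc-miR-24-2-5p: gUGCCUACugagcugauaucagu
ssc-miR-24-3p: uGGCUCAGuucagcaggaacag
ssc-miR-27b-5p: aGAGCUUAgcugauuggugaaca

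The copies from the 2 clusters had the same seed in each of the first 3 groups, and no other probe of the array shared any of these seeds. Positions are counted from 1 at the 5′ end of the first miRNA named. miR-23a and miR-23b were identical over their first 18 bases and differed by U19A and by 1 further base at the 3′ end of miR-23b. miR-27a and miR-27b-3p differed only by C19U. Cross-hybridization between such copies was not measured, and the values of miR-23a against miR-23b and of miR-27a against miR-27b-3p are uncertain to that extent. The 5p arms of miR-24 shared their first 16 bases and their last 4 and differed between them. miR-24-3p and miR-27b-5p had no close relative among the probes, with at most 12 of 22 and 14 of 23 bases matching any other in ungapped alignments shifted by at most 4 bases.

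The arrays measured spot brightness, not molecules. The values below are scanner intensities corrected for background, quantile-normalized and put on the log2 scale, where a step of 1 is a doubling. Values of different probes are not compared as levels, since probes bind with different strength. The empty spots of the arrays had a median intensity of 64.7 to 214 in sham and 242.5 to 399 in paced animals, so that the background was higher on every paced array than on every sham array. Between 104 and 175 miRNAs per array stood well above background, that is more than 3 SD above the empty spots, with the fewest in paced replicate 1. The tissue label was checked against marker miRNAs. Of 6 muscle miRNAs, 4 (miR-1, miR-133a-3p, miR-133b and miR-499-5p) were well above background on all 6 arrays, while miR-206 of skeletal muscle, miR-122 of liver and miR-124a and miR-9 of neurons were on none.

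Of the 8 miRNAs, 5 were well above background in every animal (miR-23a, miR-23b, miR-27a, miR-27b-3p and miR-24-3p), and 3 dim 5p arms were not (miR-24-1-5p, miR-24-2-5p and miR-27b-5p). None of the 8 passed the test after adjustment over all miRNAs by limma with the method of Benjamini and Hochberg, and neither did any other miRNA (0% of 322), the lowest adjusted p being 0.148. At an unadjusted p of 0.05 or less, 2 of the 8 were lower in paced animals and 0 higher, against 7.14% of all 322 miRNAs lower and 10.6% in either direction. The same 2, miR-24-2-5p and miR-27b-5p, had paced values wholly below the sham values. Such separation in that direction was found for 10.6% of all miRNAs, and in either direction for 17.4%. The median difference of the 8 was -0.01, and that of all miRNAs 0.00.

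**Figure D1:**
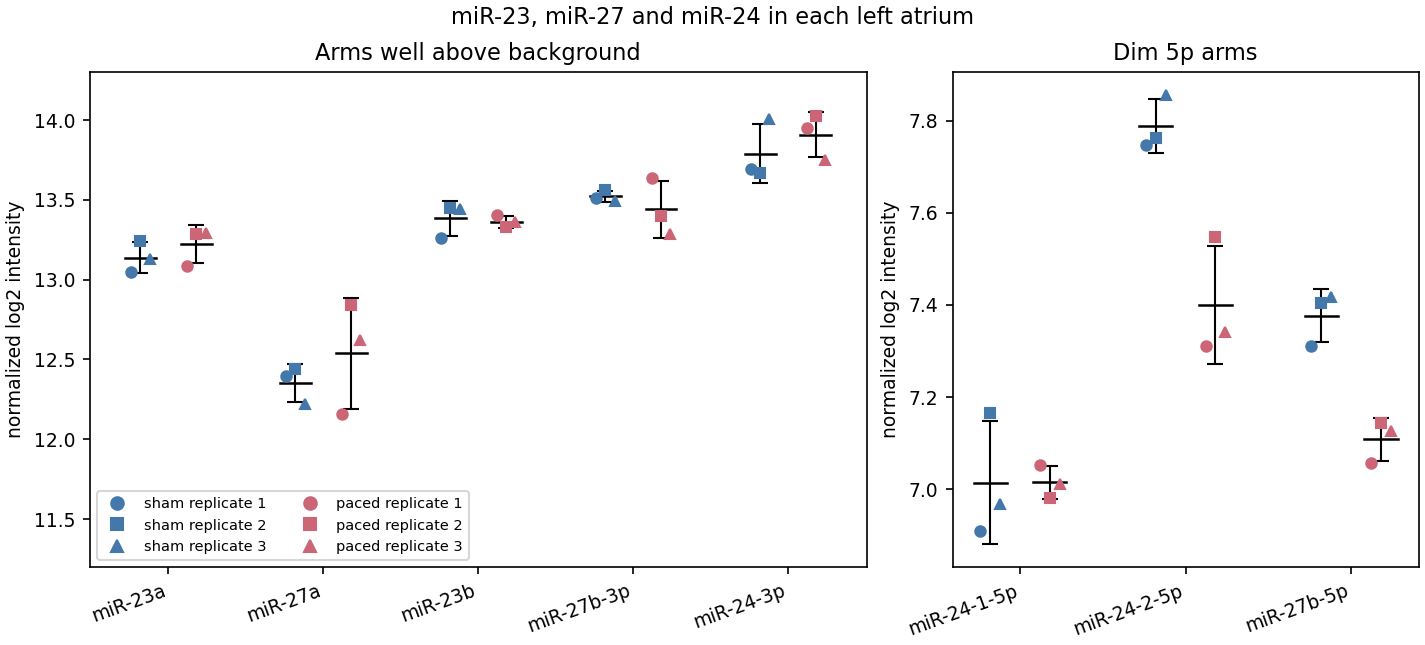
Normalized log2 intensity (y axis) of the 8 miRNAs (x axis) in each animal, sham in blue and paced in red, with 1 symbol per replicate number and the mean and SD of 3 animals in black. Paced and sham points overlap for the 5 brighter miRNAs and for miR-24-1-5p, and lie apart for miR-24-2-5p and miR-27b-5p. The 2 panels have different y axes, neither starting at 0.

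In the first cluster, miR-23a and miR-27a showed no difference beyond the spread between animals, and miR-27a varied most among the paced pigs. miR-23a, a miRNA studied for its part in cardiac hypertrophy, was at 13.05, 13.24 and 13.13 in sham replicates 1 to 3 and at 13.09, 13.29 and 13.29 in paced replicates 1 to 3. The groups overlapped, and the difference of paced minus sham was 0.09 (SE 0.09, 95% interval -0.13 to 0.30, adjusted p = 0.762 in limma). miR-27a, which is known to act on lipid metabolism and on angiogenesis, was at 12.40, 12.44 and 12.22 in sham and at 12.16, 12.84 and 12.62 in paced animals. Paced replicates 2 and 3 lay above all sham animals and paced replicate 1 below all of them. Sham animals had a mean of 12.35 ± 0.12 (SD, n = 3) and paced animals of 12.54 ± 0.35 (SD, n = 3), which differed by 0.19 (SE 0.17, 95% interval -0.22 to 0.60, adjusted p = 0.738 in limma).

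The 3p arms of the second cluster did not differ beyond the spread either. miR-23b, the copy of miR-23a, was at 13.26, 13.45 and 13.44 in sham and at 13.40, 13.33 and 13.36 in paced animals. All 3 paced values fell inside the range of the sham values, and the difference was -0.02 (SE 0.08, 95% interval -0.21 to 0.17, adjusted p = 0.920 in limma). miR-27b-3p, the copy of miR-27a, was at 13.51, 13.56 and 13.50 in sham animals, which lay close together (13.52 ± 0.03, SD, n = 3). In paced animals it was at 13.64, 13.40 and 13.29 (13.44 ± 0.18, SD, n = 3), with replicate 1 above and replicates 2 and 3 below every sham value. Its difference was -0.08 (SE 0.10, 95% interval -0.32 to 0.15, adjusted p = 0.788 in limma).

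miR-24-3p, the guide arm of both miR-24 genes, which is known from work on cardiomyocyte survival and calcium handling, was at 13.69, 13.67 and 14.00 in sham and at 13.95, 14.02 and 13.75 in paced animals. The groups overlapped, and the difference was 0.12 (SE 0.12, 95% interval -0.16 to 0.40, adjusted p = 0.747 in limma). The study itself lists miR-23b as slightly lower in paced animals on these arrays. By quantitative PCR, with more animals per group, it reports miR-23a, miR-23b and miR-24 as significantly reduced after pacing. Those PCR values come from another method and are not part of the data used here.

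For these 5 miRNAs the 95% intervals ran from -0.32 at the lowest to 0.60 at the highest, and a halved signal would show as -0.99 on this scale. A change of that size lay outside the intervals of all 5, which holds for the normalized values only. Without normalization, where the median of all miRNAs moved by 0.27, the differences of the 5 were between -0.41 and -0.10. Those of miR-23a, miR-27a and miR-24-3p thus turned negative, while those of miR-23b and miR-27b-3p were below 0 with and without it. With the authors' processed values (10816, 10878 and 11373 in sham and 9781, 9897 and 10346 in paced animals) the groups did not overlap for miR-23b. On those values 17.1% of all miRNAs did not overlap, in either direction. Total RNA of whole tissue was measured, so that a change in the share of a cell type and a change of miRNA per cell cannot be told apart.

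**Figure D2:**
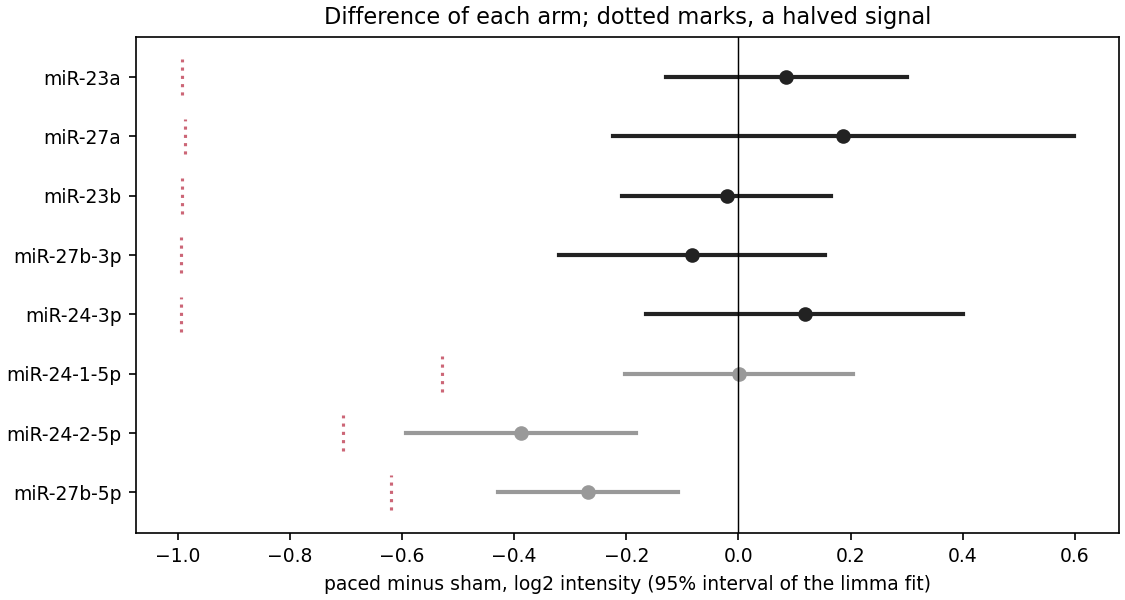
Difference of paced minus sham animals in log2 intensity (x axis) for each of the 8 miRNAs (y axis), as points with the 95% interval of the limma fit, black for those well above background on all arrays and grey for the dim 5p arms. The dotted red marks show where a halved signal would lie, near -0.99 for the brighter miRNAs and between -0.71 and -0.53 for the dim ones. The intervals of miR-24-2-5p and miR-27b-5p lie below 0 and the other 6 include 0.

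Within an array, the copies of the 2 clusters were compared by subtracting the log2 value of the second cluster from that of the first. This difference is not a ratio of molecules, but its change between animals does not depend on a common scaling of the array. For miR-27a minus miR-27b-3p it was -1.12, -1.12 and -1.28 in sham replicates 1 to 3 and -1.48, -0.56 and -0.67 in paced replicates 1 to 3. The sham animals lay close together (SD 0.09, n = 3) and the paced animals far apart (SD 0.50, n = 3), with replicate 1 below and replicates 2 and 3 above all sham animals. For miR-23a minus miR-23b it was -0.21, -0.21 and -0.32 in sham and -0.32, -0.04 and -0.07 in paced animals. Here too paced replicates 2 and 3 were above all sham animals, with replicate 1 level with the lowest sham animal. The difference of the group means was 0.27 for the miR-27 copies and 0.11 for the miR-23 copies, and an exact two-sided permutation test of the latter gave p = 0.4, where 0.1 is the smallest p that 3 against 3 animals allow. The miR-27 pair was chosen after its values were seen and was not tested.

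For the miR-27 copies, paced replicate 1 lay below and paced replicates 2 and 3 above every sham animal with other processing too. Over 9 other ways of correcting and scaling the same arrays, miR-27a minus miR-27b-3p stayed between -1.40 and -1.07 in the sham animals, between -1.50 and -1.46 in paced replicate 1 and between -0.72 and -0.55 in paced replicates 2 and 3. The SD of the sham animals was 0.17 in place of 0.09 without normalization or with scaling alone. For the miR-23 copies the difference of the group means was 0.07 to 0.11, and paced replicate 1, at -0.37 without normalization, then lay below the lowest sham animal, at -0.31. Paced replicate 1 had the highest background of the 6 arrays, a median of 399 for the empty spots. It also had the lowest value of miR-1, a muscle miRNA, at 12.65 against 13.73 and 13.95 in the other paced animals. Sham animals had 12.997, 12.99 and 13.23. Of the other muscle miRNAs, miR-499-5p (11.90) and miR-208b (7.87) were also lowest in paced replicate 1. miR-133a-3p (14.54) and miR-133b (14.52) lay there inside the range of the other arrays, and miR-206 was well above background on none. The part of the background and of the muscle miRNAs in the result was not tested. Without paced replicate 1, the values of 5 of the 8 miRNAs did not overlap between the groups, namely miR-23a and miR-27a with differences of 0.15 and 0.38 and miR-27b-3p, miR-24-2-5p and miR-27b-5p with -0.18, -0.37 and -0.25. With 2 paced animals left, 39.8% of all miRNAs were then without overlap, and the lowest adjusted p among the 8 was 0.0792 in limma.

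**Figure D3:**
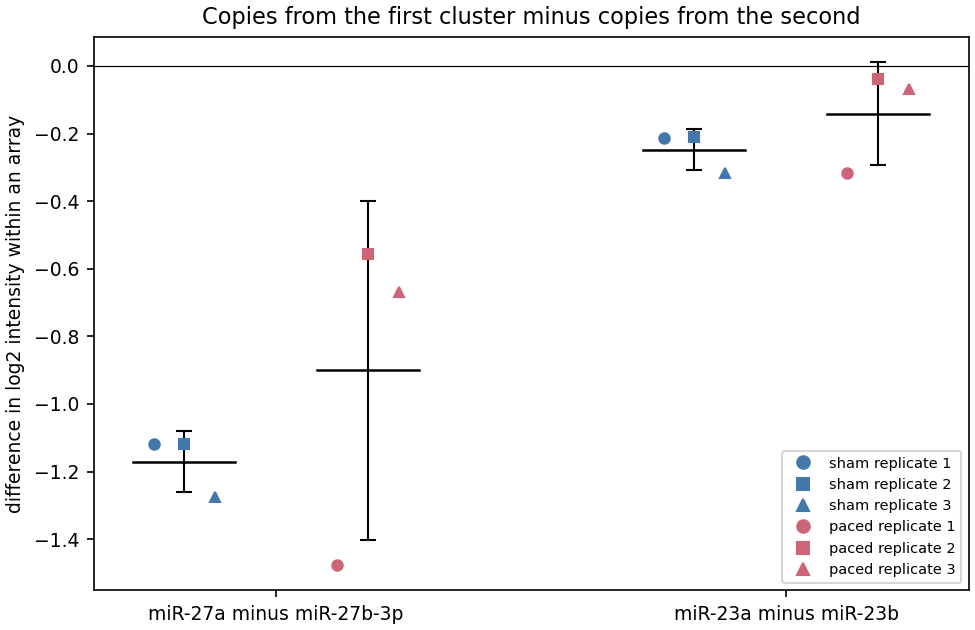
Log2 intensity of the copy from the first cluster minus that of the copy from the second within each array (y axis), for miR-27a and miR-27b-3p and for miR-23a and miR-23b (x axis), sham in blue and paced in red, with the mean and SD of 3 animals in black. Sham animals lie together between -1.28 and -1.12 for miR-27, while paced animals run from -1.48 to -0.56.

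With this processing, the groups were separate among the 8 only for 2 of the dim 5p arms. miR-24-2-5p, the passenger arm of the miR-24 gene in the second cluster, was at 7.75, 7.76 and 7.86 in sham and at 7.31, 7.55 and 7.34 in paced animals. All paced values were below all sham values. Sham animals had a mean of 7.79 ± 0.06 (SD, n = 3) and paced animals of 7.40 ± 0.13 (SD, n = 3), for a difference of -0.39 (SE 0.09, 95% interval -0.59 to -0.18) with an unadjusted p of 0.00303 and an adjusted p of 0.148 in limma. It had the 6th lowest p of the 322 miRNAs.

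miR-27b-5p, the passenger arm of the neighbouring miR-27b gene, gave a like difference. It was at 7.31, 7.40 and 7.42 in sham and at 7.06, 7.14 and 7.13 in paced animals, again without overlap. Sham animals had a mean of 7.38 ± 0.06 (SD, n = 3) and paced animals of 7.11 ± 0.05 (SD, n = 3), for a difference of -0.27 (SE 0.07, 95% interval -0.43 to -0.11) with an unadjusted p of 0.00582 and an adjusted p of 0.175 in limma. Over the 6 arrays the log2 values of miR-24-2-5p and miR-27b-5p had a Pearson r of 0.95, a description over arrays that share the background difference between the groups.

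miR-24-1-5p, the passenger arm of the miR-24 gene in the first cluster, showed no such difference. It was at 6.91, 7.17 and 6.97 in sham and at 7.05, 6.98 and 7.01 in paced animals, with a difference of 0.00 (SE 0.09, 95% interval -0.20 to 0.20, adjusted p = 0.997 in limma). It was well above background on no array, so that its values give only a bound on its level.

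The scanner signal of these arms was small against the background. After subtraction of the median of the empty spots, miR-24-2-5p had 129, 68.8 and 87.6 intensity units in sham and -35.0, 121 and 32.5 in paced animals. It was well above background in sham replicates 2 and 3 and in paced replicate 2, and before normalization the groups overlapped. miR-27b-5p had 18.7, 35.4 and 48.9 units in sham and -67.9, 50.5 and 12.3 in paced animals, and was well above background in sham replicates 2 and 3 and in no paced animal. miR-24-1-5p had -7.45, 15.1 and 5.45 units in sham and -79.8, 36.6 and -4.80 in paced animals. The lowest value of each of the 3 arms was that of paced replicate 1, below the median of its empty spots. The level of miR-27b-5p in paced animals is only bounded, and no fold is given, since the bound was under 1. The part of the higher background on the paced arrays in these differences was not tested. Among the 218 miRNAs not well above background on all arrays, 13.3% had paced values wholly below the sham values.

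**Figure D4:**
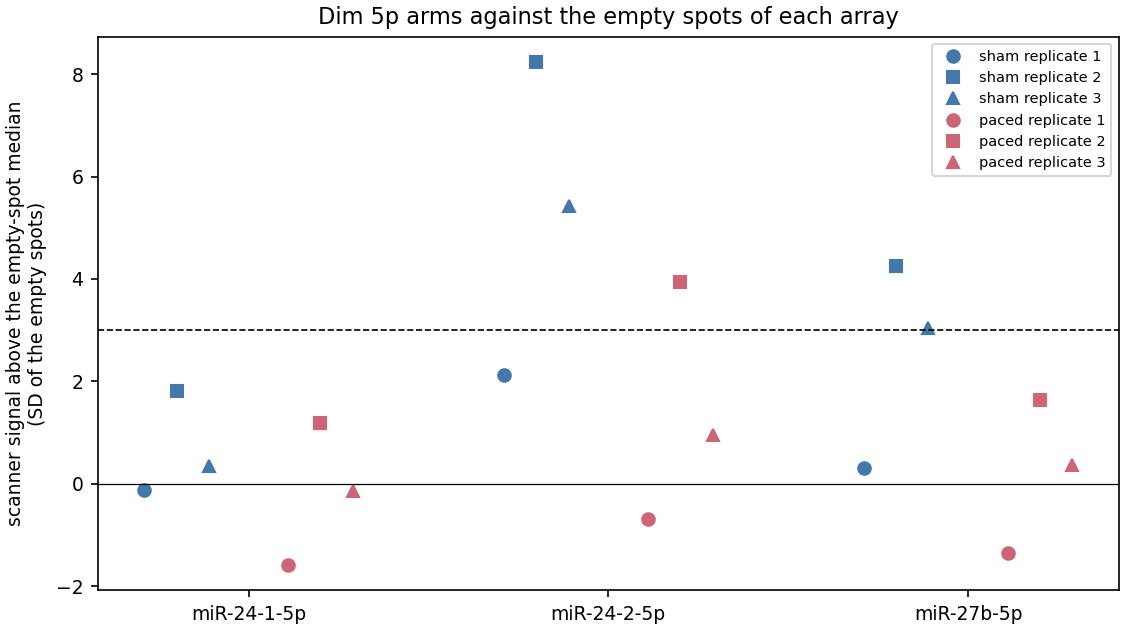
Scanner signal of the 3 dim 5p arms above the median of the empty spots of the same array, in SD of the empty spots (y axis), for each miRNA (x axis) and animal, sham in blue and paced in red. The dashed line is the limit of 3 SD. It is passed by miR-24-2-5p in 3 animals, by miR-27b-5p in 2 sham animals and by miR-24-1-5p in none.

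The authors' processed values placed miR-24-2-5p and miR-27b-5p in the same order of groups. miR-24-2-5p was at 100.3, 94.5 and 113 in sham and at 45.1, 78.3 and 48.8 in paced animals, and miR-27b-5p at 37.9, 54.6 and 63.0 in sham and at 16.3, 35.2 and 27.9 in paced animals. Neither overlapped. miR-24-1-5p was at 19.0, 26.1 and 18.2 in sham and at 14.7, 15.1 and 15.7 in paced animals. Unlike in the normalized values above, its paced values were thus all below its sham values. Of all miRNAs, 17.1% did not overlap in either direction on the processed values. The median over all miRNAs of the log2 difference was -0.05 on the processed values.

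The 9 repeat spots of a probe lie in 3 sets of 3 spots on each array, and each set was fitted on its own, which was decided once the data had been seen. miR-24-2-5p gave differences of -0.24, -0.29 and -0.63 in sets 1, 2 and 3, and miR-27b-5p -0.09, -0.28 and -0.44. Both were below 0 in every set, and the size differed between sets. miR-24-1-5p gave 0.27, 0.01 and -0.27, and the median of all miRNAs 0.06, 0.02 and -0.09. The values were thus highest in set 1 and lowest in set 3 for all 3 arms as well as for the median of the array.

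Relative to the median of all miRNAs, miR-24-2-5p was lower in paced animals under each of the 18 other settings that changed its value, by -0.98 to -0.27, and so was miR-27b-5p, by -0.95 to -0.08. With scaling of each array to the miRNAs well above background, the median of all miRNAs rose by 0.44, and the differences themselves became 0.14 for miR-24-2-5p and 0.33 for miR-27b-5p. miR-24-1-5p lay below the median in 10 of these 18 settings. Of the brighter miRNAs, miR-27b-3p lay below it in 18 of 19 settings (-0.68 to 0.03) and miR-23b in 14 of 19 (-0.61 to 0.09). miR-23a, miR-27a and miR-24-3p lay below it in 3, 2 and 2 of 19. Scaling and no normalization gave the same relative values, so the settings are not all separate checks. These were -0.30 for miR-24-2-5p and -0.11 for miR-27b-5p, against -0.68 to -0.38 for the 5 brighter miRNAs.

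**Figure D5:**
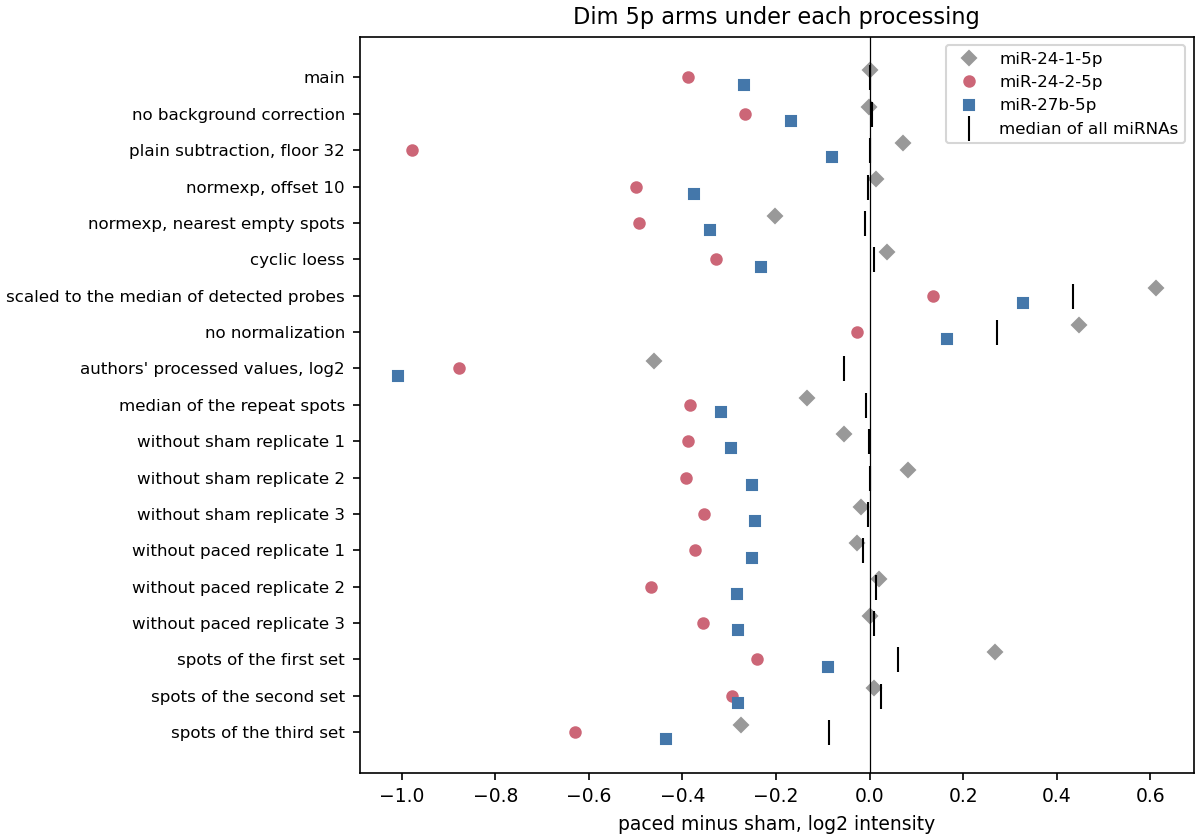
Difference of paced minus sham animals in log2 intensity (x axis) of the 3 dim 5p arms under each setting of the processing (y axis), with the median of all miRNAs as a vertical tick. miR-24-2-5p and miR-27b-5p lie to the left of the tick in every setting shown, and both lie to the right of 0 with scaling to the median of detected probes.

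Arms and neighbours were then set against each other within each array, in 7 pairs with exact two-sided permutation tests over animals. Of these pairs 6 were planned, and miR-27b-3p minus miR-27b-5p was not. The difference of miR-24-1-5p minus miR-24-2-5p was -0.84, -0.60 and -0.89 in sham and -0.26, -0.57 and -0.33 in paced animals. The groups did not overlap, with a step of 0.39 (exact permutation p = 0.1, the smallest possible, and 0.233 after adjustment over the 7 pairs). The step was above 0 under every setting tried, with an exact p of 0.1 to 0.25. It is a difference between dim signals, since miR-24-1-5p was well above background on no array and miR-24-2-5p in only 1 paced animal, and not a measured difference of levels.

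Of the pairs of a 3p arm with a dim 5p arm, some separated the groups and some did not. miR-24-3p minus miR-24-2-5p was 6.002 ± 0.13 (SD, n = 3) in the sham group and 6.51 ± 0.12 (SD, n = 3) in the paced group, without overlap, a step of 0.51 (exact permutation p = 0.1, adjusted 0.233). For miR-23b minus miR-27b-5p, from neighbouring hairpins, the step was 0.25, also without overlap (exact permutation p = 0.1, adjusted 0.233). For miR-27b-3p minus miR-27b-5p, both arms of 1 hairpin, it was 0.18 and the groups overlapped (exact permutation p = 0.2, adjusted 0.35). The steps of these 3 pairs turned negative, at -0.13, -0.50 and -0.57, without normalization or with scaling alone. At -0.50, for miR-23b minus miR-27b-5p, the exact permutation p was again 0.1, so that the groups were then separate in the opposite direction. The remaining pairs overlapped, with steps of 0.12 for miR-24-3p minus miR-24-1-5p (exact permutation p = 0.6) and 0.10 for miR-27a minus miR-23a (exact permutation p = 0.7).

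Among the cardiac miRNAs of a list of 28 probes, which includes the miR-1, miR-133, miR-29, miR-30 and miR-199 families, 1 was lower and 0 higher at an unadjusted p of 0.05 or less, against 7.14% of all miRNAs lower and 10.6% in either direction. None of the 28 (0) passed after adjustment in limma, and the median difference was -0.05. The lower one was miR-30c-3p, also a passenger arm and well above background on no array, at 7.15, 7.20 and 7.22 in sham and 6.94, 7.002 and 6.86 in paced animals (difference -0.26, SE 0.07, adjusted p = 0.210 in limma).

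Markers of other cells moved in part with the groups. Of 3 erythrocyte miRNAs, miR-486 was without overlap lower in paced animals (difference -0.70, SE 0.15, adjusted p = 0.148 in limma), miR-451 had a difference of -0.37 (SE 0.20, adjusted p = 0.507) and miR-144 was well above background on no array. Their summed linear signal was 12277 to 17152 in sham and 8269 to 12378 in paced animals, which overlapped. The study lists miR-486 as reported in mouse skeletal muscle, so its values cannot be assigned to erythrocytes alone. The summed signal of the 2 endothelial miR-126 arms was 8421 to 10079 in sham and 8184 to 9490 in paced animals. miR-126-3p had a difference of -0.02 (SE 0.10, adjusted p = 0.935 in limma). miR-126-5p, well above background on no array, was higher in all paced than in all sham animals, with a difference of 0.37 (SE 0.13, unadjusted p = 0.0243, adjusted p = 0.360 in limma). The summed signal of the 3 leukocyte probes was 809 to 1092 in sham and 795 to 1073 in paced animals. Of these, miR-142-3p and miR-142-5p were well above background on no array. The part of blood and endothelial cells in the values of the miR-23, miR-27 and miR-24 miRNAs was not tested.

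Likeness over the 6 arrays was described by Pearson r of the log2 values with the other 103 miRNAs well above background on all arrays, as a description only, since the arrays share background and scaling. The 3 most alike to miR-23a were miR-125a (r 0.98), miR-1285 (0.91) and let-7d-5p (0.82), and to miR-23b miR-1306-5p (0.97), let-7d-3p (0.86) and miR-331-3p (0.82). For miR-27a they were miR-15a (0.92), miR-186 (0.86) and miR-148a-3p (0.84), and for miR-27b-3p miR-1343 (0.96), miR-199a-5p (0.94) and miR-140-3p (0.91). For miR-24-3p they were miR-133a-3p (0.81), miR-218b (0.80) and miR-30d (0.62). None of the 8 miRNAs was among the 3 most alike to any of these 5. Within the first cluster miR-23a and miR-27a had r 0.79, and within the second miR-23b and miR-27b-3p had r 0.31. miR-24-3p had r -0.01 to 0.18 with these miRNAs. The copies miR-27a and miR-27b-3p had r -0.75 and the copies miR-23a and miR-23b 0.18.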

How the data were processed

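LA RNA from 3 sham and 3 paced pigs was hybridized to 1-colour arrays by a service provider (pig miRNA probes of miRBase release 20), with 1 array per animal. The authors deposited the median intensity of each spot (2898 spots, 9 repeats of 322 probes, and 786 empty spots), with background included, and processed intensity values whose correction and scaling are not given in the sources used here. Spearman's rho between both across probes was 0.988 to 0.996.

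Spot intensities were corrected by normexp (offset 50), quantile-normalized over the miRNA spots, put on the log2 scale and averaged per probe. The offset compresses differences of dim probes. Groups from the labels were compared with lmFit and eBayes of limma 3.58.1 (R 4.3.3) over all 322 probes, with Benjamini-Hochberg adjustment. A probe was well above background where its median exceeded that of the empty spots by 3 SD. A bound set the bright group's mean against the lowest detected signal per dim array, or the dim probe's own where higher. Within-array differences were tested with exact permutation tests over animals.

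The 8 probes, the marker and cardiac lists and the pairs were chosen with earlier results of these data known. Named miRNAs are the 8 probes, the 3 most alike to each bright one, and list members named after their values were seen. Of 4 leukocyte probes listed, 3 matched. Sequences are those in the array files, and gene neighbours come from a RefSeq table (Sscrofa11.1). No genome was used and no coordinates are given. The number of arrays limits the precision. The fit was tested on simulated data with larger changes than those of the 8 miRNAs, equal spread for all probes and no background difference between groups. That test does not show how the fit treats small differences of dim probes under unequal background. Alternatives changed background correction, normalization, summary, filter, test and animals included. Figures were drawn with matplotlib 3.10.9 (Python 3.11.15).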

Additional observations from a re-analysis of the deposited data

How the results depend on the processing

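The counts of 2 miRNAs moved with the processing. The number without overlap was 1 with plain subtraction (floor 32), which loses miR-27b-5p, 0 without normalization, 4 with the authors' processed values (miR-23b and the 3 dim arms), 3 against the nearest empty spots (the 3 dim arms) and from 2 to 5 with 1 animal left out (5 without paced replicate 1). It was also 2 with scaling to the median of detected probes, but then miR-24-1-5p and miR-27b-5p, both higher in paced animals. The number at an unadjusted p of 0.05 or less was 1 with plain subtraction (miR-24-2-5p), 1 with scaling (miR-24-1-5p, higher), 0 without normalization, 0 with the filter on dim probes, which leaves out the 3 dim arms, 0 with the first set of spots, 3 with the third set (the 3 dim arms) and from 2 to 4 with 1 animal left out (4 without paced replicate 1). The number was still 2 with the methods' t-test on the authors' processed values, but miR-23b, lower in paced animals, then replaced miR-27b-5p. Of all 322 miRNAs, 20 had such a p with plain subtraction, 181 with scaling, 15 without normalization, 28 with the first set and 52 with the third. With 1 animal left out, 18 to 69 of all miRNAs had such a p, the most without paced replicate 1. Scaling moved the median of all miRNAs by 0.44 and put 171 miRNAs past the adjusted threshold, and no normalization moved it by 0.27.

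Signs changed mostly for differences within the spread between animals. The difference of miR-23a was -0.10 with scaling, -0.26 without normalization, -0.069 on the log2 of the processed values and -380 intensity units on the processed values with the methods' t-test. That of miR-23b was 0.0028 with the third set of spots. That of miR-24-1-5p was -0.0016 without background correction, -0.20 against the nearest empty spots, -0.46 on the log2 of the processed values, -0.13 with the median of the repeat spots, -5.96 units with the methods' t-test on the processed values and -0.27 with the third set of spots, and with scaling it was 0.61 and passed the adjusted threshold (adjusted p = 0.00452 in limma). Scaling gave 0.14 for miR-24-2-5p and 0.33 for miR-27b-5p. Without normalization the differences were 0.17 for miR-27b-5p, -0.16 for miR-24-3p and -0.10 for miR-27a. The cause of these changes was not tested.

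With 1 animal left out the differences were 0.04 to 0.15 for miR-23a, -0.079 to 0.011 for miR-23b (positive without sham replicate 2 or 3), 0.03 to 0.38 for miR-27a, -0.18 to -0.01 for miR-27b-3p, 0.06 to 0.22 for miR-24-3p, -0.055 to 0.082 for miR-24-1-5p (negative without sham replicate 1 or 3 or paced replicate 1), -0.47 to -0.35 for miR-24-2-5p and -0.30 to -0.24 for miR-27b-5p. Within arrays, scaling and no normalization each gave -0.60 for miR-24-3p minus miR-24-1-5p, -0.13 for miR-24-3p minus miR-24-2-5p, -0.50 for miR-23b minus miR-27b-5p and -0.57 for miR-27b-3p minus miR-27b-5p, the last also -0.0046 with plain subtraction. With 1 animal left out, miR-24-3p minus miR-24-1-5p was -0.022 (without sham replicate 2) to 0.23 and miR-27a minus miR-23a -0.018 (without paced replicate 2) to 0.22.

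Animals with the same replicate number did not all deviate together (correlations 0.18, -0.01 and 0.22, against -0.24 to 0.09 between different numbers). Correlations this weak and few cannot tell whether the numbers pair the animals. With the replicate number as a block, 33 miRNAs against 34 had an unadjusted p of 0.05 or less and 0 against 0 passed after adjustment in limma, and miR-24-2-5p and miR-27b-5p were the 2 of the 8 at that unadjusted p. The difference of miR-24-2-5p with the block was -0.39.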
